A study of Mus musculus with 57 samples.

Results

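FOXA2 single-positive progeny of retinoic acid-treated mouse embryonic stem cells were compared between D6 and D4 of differentiation. The comparison rests on 6 of the 57 RNA-seq libraries of the study, 3 at each day. They were picked by their labels as progeny of Sox1-FOXA2+ cells, with no measured value used. All cells came from 1 mouse embryonic stem cell clone in which EGFP replaces the coding sequence of 1 Sox1 allele and mCherry is fused to the C-terminus of FOXA2. The cells were treated with 1 uM retinoic acid (RA) in serum-free N2B27 medium for 2 days. They were then sorted by flow cytometry as Sox1-FOXA2+, replated on gelatin and kept with 1 uM RA in a serum medium without LIF. Harvest was after 2 more days (D4) or 4 more days (D6), so both groups had the same medium and agent and differed by time. The cultures were not sorted again at harvest, so a library holds whatever the sorted cells gave rise to. Progeny of Sox1+FOXA2- and of Sox1+FOXA2+ cells, kept in the same way, and Sox1-FOXA2+ cells sorted directly from N2B27 with RA at D2, D4 and D6 serve as comparisons below, each with 3 libraries per day.

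FOXA2 is a forkhead transcription factor of endoderm, and SOX1 is a transcription factor of early neuroectoderm. RA drives embryonic stem cells towards neural fates and towards extraembryonic endoderm, the tissue that lines the yolk sac. Extraembryonic endoderm has a parietal branch and a visceral branch. Parietal endoderm cells migrate singly and lay down a thick basement membrane made of laminin, type IV collagen, nidogen and SPARC, and they are known for the surface protein thrombomodulin. Visceral endoderm cells stay epithelial and take up maternal proteins through the endocytic receptors cubilin and megalin.

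The 6 libraries held 10170632 to 76784146 counts, the lowest being D4 replicate 1. Values per library are given below as normalized counts, which are raw counts divided by a DESeq2 size factor. Fold changes come from edgeR's quasi-likelihood test over 24025 genes, with p-values adjusted by the Benjamini-Hochberg method, and a gene was called at an adjusted p under 0.05. The labels call the replicates biological without naming separate cultures, so p-values measure the spread between libraries. For the main comparison that spread was estimated over all progeny libraries, those of the other populations included. Same-numbered libraries of a day deviated together to varying degrees, as given below, whereas this fit treats them as independent. The libraries of D6 replicates 2 and 3 correlated at 0.959 over genes on a log scale, whereas D6 replicate 1 correlated with them at 0.888 and 0.852. Of 8817 genes with at least 500 normalized counts in a D6 library, 274 lay over 4 times away from both other D6 libraries in D6 replicate 1, against 10 and 14 in D6 replicates 2 and 3. The D4 libraries were spread too. D4 replicate 1 correlated with the other D4 libraries at 0.876 and 0.850, and those with each other at 0.894. Of 8835 genes counted in the same way at D4, 98, 87 and 20 lay over 4 times away from both others in D4 replicates 1, 2 and 3. List counts are given with and without D6 replicate 1, and calls are given with the libraries whose omission loses them.

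**Figure D1:**
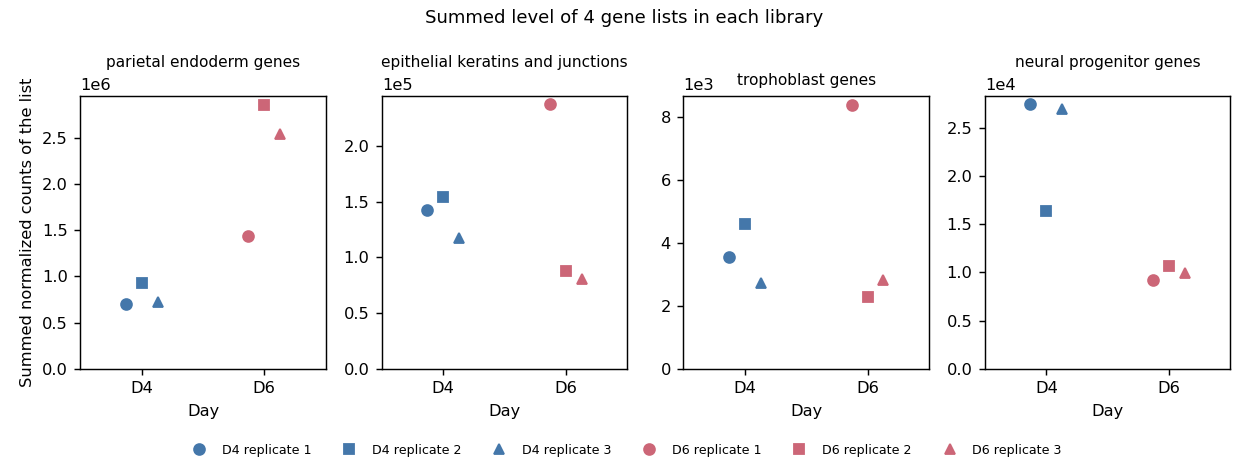
Summed normalized counts (y axes, linear and starting at 0, 1 scale per panel) of 4 gene lists in each D4 and D6 library of Sox1-FOXA2+ progeny, with 1 symbol per replicate. D6 replicate 1 held 237690 normalized counts of the epithelial list against 88232 and 80912 in the other D6 libraries, and its parietal endoderm sum of 1440000 lay below their 2851800 and 2541600.

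The plot of summed list levels shows how D6 replicate 1 departed. Its epithelial sum was above that of every other library, including D4 libraries at 142720, 154450 and 117830. Cdh1, the adhesion protein E-cadherin, had 32602 normalized counts there, against 2264 and 4724 in the other D6 libraries. Krt7, a simple-epithelium keratin, had 7030 against 537 and 680, and Grhl2, a transcription factor of epithelial junctions, had 2215 against 82.2 and 222. The trophoblast list summed to 8377 in D6 replicate 1 and to 2276 and 2827 in the others. The part of this library's difference in each result was tested only by leaving the library out.

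The label was checked against the sorted marker genes. Foxa2 had 2464, 2031 and 1093 normalized counts at D4 and 2848, 3300 and 3047 at D6 (log2 fold change 0.72 ± 0.55 SE, adjusted p = 0.822), so the libraries did not overlap but the difference was not called. Its mean of 3065 ± 226 (SD, n = 3) at D6 compares with 225 in Sox1+FOXA2- progeny and 714 in Sox1+FOXA2+ progeny at the same day. Sox1 was listed at 0 in all 57 libraries, Sox1-sorted ones included. Sox2 and the housekeeping gene B2m were at 0 as well, as were 1848 of 21951 protein-coding genes, so the Sox1 level checks nothing here. The endoderm regulators Gata4, Gata6, Sox17 and Sox7 were all read in every library.

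Between D4 and D6, 96 of 24025 genes were called, which is 0.400% of those tested. Of these, 42 rose (0.175%) and 54 fell (0.225%). The genes that rose included basement membrane proteins, collagen-modifying enzymes, the parietal endoderm gene Thbd and receptors such as Tgfbr2 and Pdgfra. The genes that fell included the neural progenitor genes Sox9 and Nes, the hedgehog pathway genes Gas1 and Gli2, Hoxb9, the RA-binding protein gene Crabp2 and the contractile genes Myl9 and Cnn1. The median log2 fold change over all genes was 0.04. In bulk libraries, fewer cells of a type and less RNA per cell cannot be told apart.

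The number of calls moved with the libraries in the fit. The 96 calls come from a fit of all 18 progeny libraries. In a fit of the 6 libraries alone, which tested 18757 genes, no gene passed, with 1347 at an unadjusted p under 0.05. With the replicate number as a block that fit called 45, of which 26 were among the 96. None passed in a fit of all 57 libraries, with 728 unadjusted, while DESeq2 called 395. Without D6 replicate 1, 207 of 26047 genes (0.795%) were called, 121 higher (0.465%) and 86 lower (0.330%). The balance of rising and falling genes moved as well. Without D4 replicate 1, 8 genes were called higher and 43 lower, and without D4 replicate 2, 21 and 53. Without D4 replicate 3 it was 34 higher and 27 lower. Without D6 replicate 2 it was 9 and 31, and without D6 replicate 3 it was 17 and 36. The 96 genes kept their direction in every fit, and 21 of them were called whichever library was left out.

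Of 29 basement membrane genes, Nid1 and Sparc rose towards D6. Nidogen, the product of Nid1, bridges laminin and type IV collagen. Nid1 (ENSMUSG00000005397.8, chr13:13437551-13512269, GRCm38) had 4705, 9419 and 9443 normalized counts at D4 and 14881, 85920 and 52002 at D6. Every D6 library was above every D4 library, and D6 replicate 1 was the lowest of the D6 libraries. The log2 fold change was 2.69 ± 0.46 SE (edgeR, adjusted p = 0.00710), and the call held whichever library was left out. In the sorted cells of the same gate, Nid1 means were 1833 at D2, 9083 at D4 and 21741 at D6.

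Sparc, which encodes a secreted glycoprotein that binds collagen, had 70300, 114609 and 86263 normalized counts at D4 and 146002, 372471 and 344242 at D6. The days did not overlap (log2 fold change 1.66 ± 0.35, adjusted p = 0.0312). The call was lost without D4 replicate 1, D4 replicate 3, D6 replicate 2 or D6 replicate 3, with an adjusted p of up to 0.179 without D6 replicate 2. Thbd, the thrombomodulin gene (chr2:148404466-148408188), had 133, 419 and 423 normalized counts at D4 and 1784, 9641 and 11058 at D6. It had the highest fold change of the called genes, 4.49 ± 0.82 on the log2 scale (adjusted p = 0.0127), and it lost its call only without D4 replicate 1 (adjusted p = 0.0598). Thbd means were 153 in Sox1+FOXA2- and 513 in Sox1+FOXA2+ progeny at D6.

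The 3 chains of the embryonic laminin heterotrimer and the 2 main type IV collagen chains were higher in every D6 library than in any D4 library, yet none was called. Lama1 had 132262, 218076 and 166775 normalized counts at D4 and 301530, 640846 and 584509 at D6 (log2 fold change 1.55, adjusted p = 0.133). Lamb1 differed by 1.59 (adjusted p = 0.0555) and Lamc1 by 1.57 (adjusted p = 0.0637). Col4a1 had 200431, 165062 and 142541 normalized counts at D4 and 358566, 536156 and 502055 at D6, a log2 difference of 1.46 (adjusted p = 0.133). Col4a2, which shares its promoter region with Col4a1, differed by 1.5 (adjusted p = 0.0918). Without D6 replicate 1, Lama1, Lamb1, Lamc1 and Col4a2 were called (adjusted p = 0.0321, 0.0105, 0.0126 and 0.0450) and Col4a1 was not (0.0651).

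**Figure D2:**
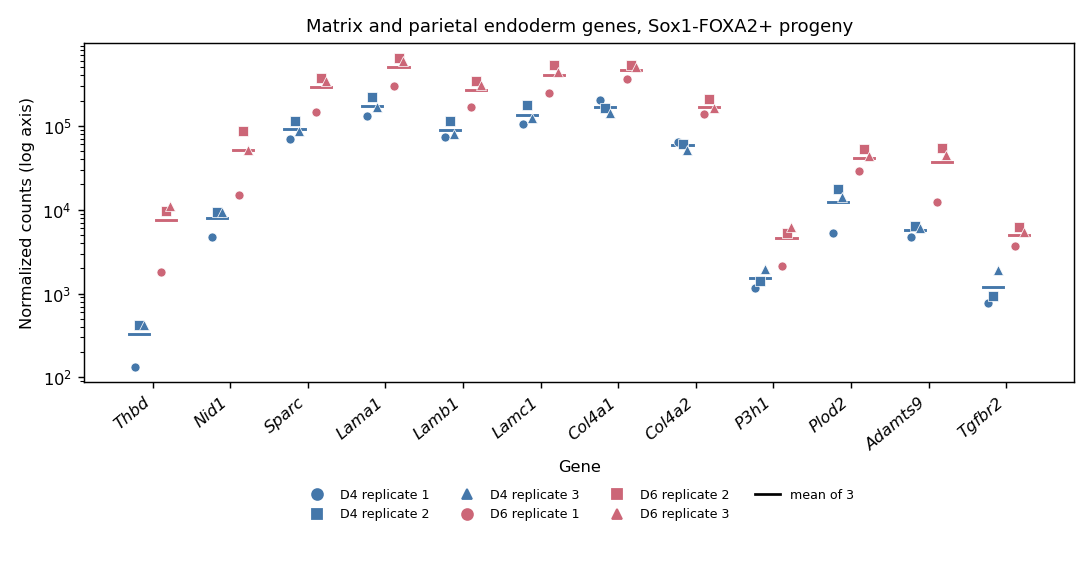
Normalized counts (log axis) of 12 matrix and parietal endoderm genes in the 3 D4 and 3 D6 libraries of Sox1-FOXA2+ progeny, with 1 symbol per replicate and a bar at the mean of 3. All D6 points lie above all D4 points of the same gene, and D6 replicate 1 is the lowest D6 point for each of the genes, as for Thbd at 1784 against 9641 and 11058.

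Per kilobase of exon, Sparc had the highest mean level of the parietal endoderm list at D6, 75920 normalized counts per kb, up from 23860 at D4. Col4a1 followed at 62380, Lama1 at 52570 and Lamc1 at 48950, whereas Nid1 was at 7336 and Thbd at 2013. The genes with the largest fold changes were thus not the most abundant of the list.

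Of the 19 parietal endoderm genes, 3 rose (Thbd, Nid1 and Sparc), none fell, and 18 had a positive fold change, with a median log2 fold change of 1.55 against 0.04 for all genes. With D6 replicate 1 left out, 11 of the 19 were called higher and the median was 1.83. Sparc, Lamb1 and Fst of this list are among endoderm genes the study picked on these samples. The members of this and the other lists were also chosen with earlier results of these data known. List counts and medians are therefore not independent evidence of direction. The list summed to 705990, 933860 and 719910 normalized counts at D4 and to 1440000, 2851800 and 2541600 at D6. Without another library, 1 (without D4 replicate 1, Nid1) to 5 (without D4 replicate 2) were called higher and none lower. Of the 29 basement membrane genes, 2 rose, none fell and 22 were positive, with a median of 0.75. The count was 6 rising and none falling when D6 replicate 1 was left out, with a median of 0.47. Both lists hold Nid1, Sparc, the laminin and the type IV collagen genes, so they are not separate results. In Sox1+FOXA2- and Sox1+FOXA2+ progeny 17 of the 19 parietal endoderm genes were positive in each, with medians of 1.05 and 1.45. The direction was thus shared with the other progeny.

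Of 20 genes of collagen modification and folding in the endoplasmic reticulum, P3h1 and Plod2 rose. P3h1, a prolyl 3-hydroxylase, had 1174, 1401 and 1971 normalized counts at D4 and 2129, 5282 and 6208 at D6 (log2 fold change 1.58 ± 0.35, adjusted p = 0.0428). Plod2, a lysyl hydroxylase, had 5310, 17685 and 14202 at D4 and 28742, 52727 and 44056 at D6 (log2 fold change 1.73 ± 0.39, adjusted p = 0.0457). Neither gene overlapped between days. P3h1 stayed called only without D6 replicate 1, with an adjusted p of up to 0.237 without D4 replicate 1, and Plod2 lost its call without D4 replicate 1, D4 replicate 3, D6 replicate 2 (0.214) or D6 replicate 3.

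Of the 20 genes, 14 were positive, 6 were negative and none fell, and the median log2 fold change was 0.82. At most 1 was called without any 1 of the other libraries. Leaving out D6 replicate 1 gave 8 called higher. They included Serpinh1, the collagen chaperone HSP47 (log2 fold change 1.27, adjusted p = 0.0522 in all libraries and 0.00202 without D6 replicate 1), and the prolyl 4-hydroxylase subunits P4ha1, P4ha2 and P4hb. In Sox1+FOXA2- and Sox1+FOXA2+ progeny 18 of the 20 collagen modification genes were positive in each, with medians of 0.63 and 0.66. Of 20 genes of the unfolded protein response, 17 were positive with a median of 0.67, and none was called with or without D6 replicate 1. Of 19 lysosome and lipid handling genes, 14 were positive with a median of 0.81, and none was called. Abca1, a cholesterol exporter, was called without D6 replicate 1 (log2 fold change 2.07, adjusted p = 0.00999).

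No endoderm regulator was called over all libraries. Gata6 had 6173, 9935 and 6425 normalized counts at D4 and 7762, 21013 and 18452 at D6 (log2 fold change 1.06, adjusted p = 0.285), and it was called without D6 replicate 1 (1.39, adjusted p = 0.0357). Gata4 differed by 0.97 (adjusted p = 0.475), Sox17 by 1.45 (0.616) and Sox7 by 1.12 (0.634). Of 11 endoderm transcription factors tested, none was called, 5 were positive and 6 negative, and the median was -0.01. In 3 of the 11 every D6 library was above every D4 library, against 6.28% of all genes tested. In 4 every D6 library was below, against 4.91%. At an unadjusted p under 0.05 (edgeR), 2 were higher and 2 lower at D6. Over all 24025 genes, 1973 were under that threshold in either direction. Foxa1, a forkhead factor of endoderm, was low throughout, with 26.7, 310 and 26.8 normalized counts at D4 and 0, 10.3 and 0 at D6 (log2 fold change -5.08, adjusted p = 0.233). Foxa2, Gata4, Gata6, Sox17 and Sox7 belong to the endoderm set that the study picked on these samples.

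No gene of visceral endoderm was called. Of 17 genes for secreted and carrier proteins, 11 could be tested and 6 were positive, with a median log2 fold change of 0.50. Afp, the fetal serum carrier alpha-fetoprotein, reached at most 41.3 normalized counts in a library and transthyretin (Ttr) at most 88.0. Apoc2, Trf, Fga and Fgg were listed at 0 in all 6, and whether that meant no expression or uncounted shared exons was not tested. The list summed to 10122 to 22172 normalized counts at D4 and 15372 to 38006 at D6, and 3 of its genes passed 100 in a library. Apoe, a lipid carrier, had 667, 1529 and 1079 at D4 and 197, 255 and 352 at D6, so the days did not overlap but the gene was not called (log2 fold change -2.05 ± 0.50, adjusted p = 0.0716). Afp, Ttr and Apoe held a small part of each list sum, most of which came from members not named here. Afm, a vitamin E carrier outside the list, had 6933, 58.3 and 244 at D4 and 96.5, 154 and 195 at D6 (-3.95, adjusted p = 0.380), its high value being that of D4 replicate 1. Lrp2, which encodes megalin, had 49398, 98246 and 65357 normalized counts at D4 and 69759, 78749 and 114190 at D6 (log2 fold change 0.28, adjusted p = 0.951). Its adaptor Dab2 differed by 0.17 (adjusted p = 0.987). The 11 endocytic genes had a median of 0.28.

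Tgfbr2, Pdgfra and Vldlr were among the other genes that rose. Tgfbr2, the type II TGF beta receptor, had 765, 946 and 1889 normalized counts at D4 and 3643, 6181 and 5353 at D6. The days were apart and the log2 fold change was 2.07 ± 0.34 (adjusted p = 0.00428), called whichever library was left out. Pdgfra, a PDGF receptor carried by parietal endoderm and mesenchyme, had 5626, 6622 and 4201 at D4 and 7756, 22719 and 23753 at D6 (1.72 ± 0.37, adjusted p = 0.0381). Vldlr, a lipoprotein receptor, had a log2 fold change of 2.22 (adjusted p = 0.0393). Pdgfra and Vldlr were lost in 4 of the 6 fits without 1 library, at up to 0.179 (without D6 replicate 2) and 0.214 (without D6 replicate 3). Both were lost without D4 replicate 1, D6 replicate 2 or D6 replicate 3, Pdgfra also without D4 replicate 3 and Vldlr without D4 replicate 2.

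Sema6d, a transmembrane semaphorin, had 1761, 5088 and 2199 normalized counts at D4 and 6452, 26642 and 24963 at D6 (log2 fold change 2.66 ± 0.47, adjusted p = 0.00769). Adamts9, a secreted protease of the versican-cleaving family, had 4669, 6409 and 6055 at D4 and 12331, 53717 and 44970 at D6 (2.70 ± 0.47, adjusted p = 0.00752). Both stayed called without any 1 library. The guidance receptor Robo2 rose by 2.07, the cell adhesion genes Nrcam and Cdh13 by 2.28 and 2.05, the calcium channel gene Cacna1d by 2.35 and Fndc1, a fibronectin type III domain gene, by 2.95 on the log2 scale (adjusted p = 0.0314, 0.0383, 0.0497, 0.0457 and 0.0312). These 5 were less stable. Nrcam, Cdh13 and Cacna1d were called in 1 of the 6 fits without a library, the fit without D6 replicate 1. Robo2 was lost without D4 replicate 1, D4 replicate 3 or D6 replicate 2 (0.136), and Fndc1 without D4 replicate 1, D4 replicate 2 or D6 replicate 2 (0.264).

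**Figure D3:**
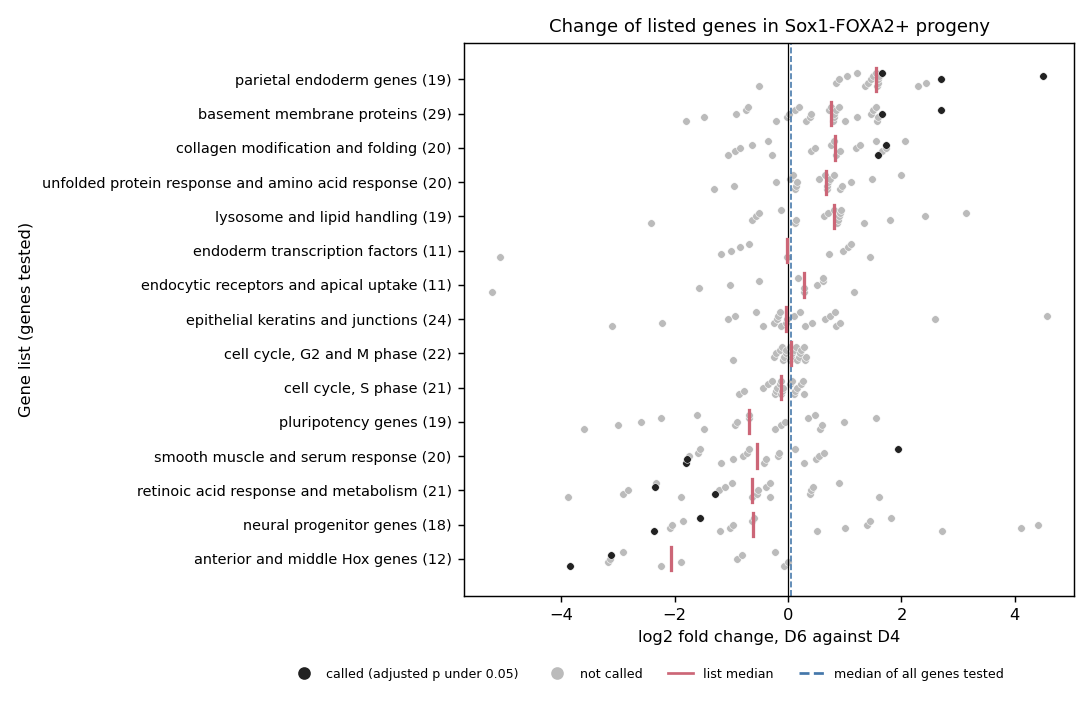
Log2 fold change, D6 against D4 (x axis), of every tested gene of 15 lists (y axis, number tested in brackets). Dark points are called genes, grey points are not, red bars are list medians and the dashed line is the median of all genes tested. The parietal endoderm median lies at 1.55 and the Hox median at -2.06, while both cell cycle lists lie within 0.12 of 0.

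Sox9 and Nes fell, 2 of 18 tested neural progenitor genes. Sox9, a transcription factor of neural and glial progenitors and of cartilage, had 2224, 2385 and 1592 normalized counts at D4 and 355, 516 and 334 at D6. The days were far apart (log2 fold change -2.37 ± 0.29, adjusted p = 0.000195), and the call held without any 1 library. Nes, the intermediate filament nestin, had 14293, 5520 and 8267 at D4 and 3689, 2664 and 3108 at D6 (-1.56 ± 0.36, adjusted p = 0.0496). Nes was called in 2 of 6 fits without a library and lost without D4 replicate 1 (0.338), D4 replicate 3, D6 replicate 2 or D6 replicate 3.

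Of the 21 genes of this list, 18 were tested and 8 of those were positive, with a median of -0.63. Without D6 replicate 1, 3 were called lower, Id3 being the other, and without any 1 of the other libraries 1 or 2 were. Sox9 and Nes are among the neural genes that the study picked on these samples. Pax6, a neuroectoderm regulator, stayed at or below 132 normalized counts in every library. The summed level of the list was 16423 to 27474 at D4 and 9181 to 10661 at D6, with Sox1 and Sox2 at 0. In the D6 progeny of Sox1+FOXA2- cells the same sum averaged 56186. Whether a minority of neural cells in the D4 cultures had a part in the fall of these genes was not tested.

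Of 21 RA response genes, Crabp2 and Tshz1 fell, with RA present in both groups. Crabp2, which delivers RA to its nuclear receptor, had 551, 703 and 822 normalized counts at D4 and 41.4, 194 and 171 at D6 (log2 fold change -2.35 ± 0.46, adjusted p = 0.0189). The call was lost without D4 replicate 3 (0.0537). Tshz1, a zinc finger transcription factor gene, fell by 1.29 on the log2 scale (adjusted p = 0.0432), and its call was lost without D4 replicate 3 (0.245) or any 1 D6 library. Cyp26b1, an enzyme that breaks down RA, had 2072, 2652 and 2696 at D4 and 850, 89.4 and 133 at D6. It was not called over all libraries (-2.83, adjusted p = 0.0934) but was without D6 replicate 1 (-4.49, adjusted p = 0.00119).

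Of the 21 RA response genes, 2 fell, none rose and 5 were positive, with a median of -0.64. The median was -0.80 without D6 replicate 1, with 3 called lower. Rarb, the RA receptor gene induced by RA itself, differed by -1.22 (adjusted p = 0.455), with 38.4% of its exon length shared with other genes.

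Hox genes, which RA activates along the body axis, pointed down in this comparison. Hoxb9 had 623, 493 and 521 normalized counts at D4 and 5.17, 119 and 59.3 at D6 (log2 fold change -3.12 ± 0.59, adjusted p = 0.0143), with every D6 library below every D4 library. Its call was lost without D6 replicate 3 (0.0564). Hoxb3 was called (-3.85, adjusted p = 0.0423) at low levels, 17.8 to 299 normalized counts at D4 and 0 to 19.8 at D6. Its days overlapped, 52.9% of its exon length is shared with other genes, and its call was lost without D4 replicate 3 or D6 replicate 2 (0.172). Of 23 Hox genes, 12 were tested, 2 of those fell and none had a positive fold change, with a median of -2.06. Of the 23, 12 were listed at 0 in all 6 libraries. Whether a 0 here meant no expression or uncounted exons shared with other genes was not tested. Hoxc4 was called without D6 replicate 1 (-2.61, adjusted p = 0.00964).

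The hedgehog pathway genes Gas1 and Gli2 fell. Gas1, a membrane coreceptor for hedgehog ligands, had 1841, 1058 and 1289 normalized counts at D4 and 255, 250 and 325 at D6. The D6 libraries were close together and well below D4 (log2 fold change -2.33 ± 0.27, adjusted p = 0.000195), and no 1 library decided the call. Gas1 shares 19.9% of its exon length with other genes. Gli2, a transcription factor of the pathway, had 1539, 593 and 2326 at D4 and 34.5, 352 and 311 at D6 (-2.65 ± 0.57, adjusted p = 0.0383), and its call was lost without D4 replicate 1, D4 replicate 3 (0.111) or D6 replicate 3. The other 10 of 12 tested pathway genes were not called, and the median of the 12 was -0.10.

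Smooth muscle and serum response genes split. Myl9, a myosin light chain, had 1459, 1318 and 1544 normalized counts at D4 and 395, 424 and 429 at D6 (log2 fold change -1.80 ± 0.33, adjusted p = 0.0124). Cnn1, calponin, had 2028, 2569 and 2800 at D4 and 783, 495 and 892 at D6 (-1.79 ± 0.39, adjusted p = 0.0383). Ccn2, a secreted matrix-associated protein, rose from 2748, 6088 and 6092 to 16032, 24684 and 17209 (1.94 ± 0.44, adjusted p = 0.0457). None of the 3 overlapped between days. Myl9 kept its call without any 1 library, Cnn1 lost it without D4 replicate 2, D4 replicate 3, D6 replicate 2 (0.222) or D6 replicate 3, and Ccn2 kept it only without D6 replicate 1, at up to 0.252 without D4 replicate 1. Of the 20 genes, 6 were positive, with a median of -0.55. Without D6 replicate 1, the tropomyosin gene Tpm1 (-1.60, adjusted p = 0.00690) was also called lower, and the list counted 1 higher and 4 lower.

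**Figure D4:**
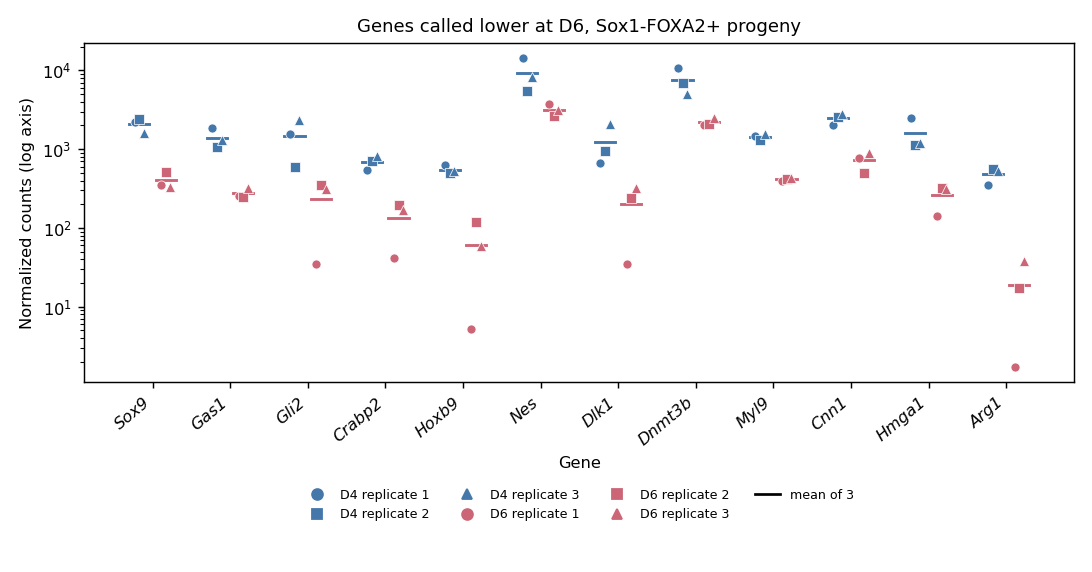
Normalized counts (log axis) of 12 genes called lower at D6 in Sox1-FOXA2+ progeny, with 1 symbol per replicate and a bar at the mean of 3. Each gene's D6 points lie below its D4 points, and D6 replicate 1 is far below the other D6 libraries for Gli2, Hoxb9, Dlk1 and Arg1 (5.17 for Hoxb9 against 119 and 59.3).

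Promoters are shown for Nid1 (rising), Gas1 and Myl9 (falling), which keep their calls without any 1 library, and for Cubn, described below. They run from 250 bases before to 50 bases after the RefSeq start on GRCm38.p6. Capitals mark matches on either strand to a GC box (GGGCGG), bound by SP1-type factors, or to the CArG box, bound by serum response factor.
Nid1, chr13:13437352-13437651, plus strand: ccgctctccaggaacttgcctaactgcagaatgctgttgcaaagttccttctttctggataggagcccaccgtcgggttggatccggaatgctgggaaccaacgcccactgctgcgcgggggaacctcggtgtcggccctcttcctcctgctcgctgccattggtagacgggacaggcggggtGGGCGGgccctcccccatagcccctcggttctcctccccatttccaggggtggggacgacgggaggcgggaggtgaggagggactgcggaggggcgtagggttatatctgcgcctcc
Gas1, chr13:60177486-60177785, minus strand: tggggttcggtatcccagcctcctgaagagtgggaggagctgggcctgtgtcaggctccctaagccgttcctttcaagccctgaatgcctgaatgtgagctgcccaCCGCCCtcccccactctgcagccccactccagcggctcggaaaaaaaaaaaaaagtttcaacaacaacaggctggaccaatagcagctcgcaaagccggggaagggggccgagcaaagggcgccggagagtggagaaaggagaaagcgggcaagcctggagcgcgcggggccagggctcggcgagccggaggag
Myl9, chr2:156775214-156775513, plus strand: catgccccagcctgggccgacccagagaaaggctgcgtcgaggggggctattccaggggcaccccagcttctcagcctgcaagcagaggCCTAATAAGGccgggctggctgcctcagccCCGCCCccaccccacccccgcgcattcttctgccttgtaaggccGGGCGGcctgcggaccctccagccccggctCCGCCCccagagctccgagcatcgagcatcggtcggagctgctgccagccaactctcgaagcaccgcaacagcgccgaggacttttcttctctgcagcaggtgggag
Cubn, chr2:13491827-13492126, minus strand: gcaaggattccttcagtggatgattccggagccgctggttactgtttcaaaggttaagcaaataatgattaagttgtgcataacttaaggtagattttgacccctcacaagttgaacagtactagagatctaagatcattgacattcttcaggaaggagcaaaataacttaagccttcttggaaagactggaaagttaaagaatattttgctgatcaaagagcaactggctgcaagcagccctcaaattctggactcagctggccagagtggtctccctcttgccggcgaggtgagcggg
The Nid1 and Gas1 windows hold 1 GC box each, the Myl9 window 3 GC boxes and 1 CArG box, and the Cubn window none of these. Windows were available for 36 of the 42 rising and 35 of the 54 falling genes. Shares below in brackets are of the 15674 tested genes with a window, then of all 27025 windows. A GC box was in 26 of the 36 and in 26 of the 35 (50.1% and 35.9%), and a CArG box in 2 rising and 1 falling gene (1.44% and 1.57%). Searches for the GATA sites AGATAA and TGATAA (14.3% and 19%) matched 3 rising and 2 falling genes, and those for the FOXA site TGTTTAC (3.06% and 3.55%) matched 1 rising and 2 falling genes. The SOX site ATTGTT (8.17% and 10.9%) matched 3 and 2, and the RA receptor half-site AGGTCA (14.1% and 16.0%) matched 4 rising genes and no falling gene. The E-box CACGTG (8.64% and 7.24%) matched 3 rising genes and no falling gene.

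Spry1 and Dusp6, feedback inhibitors of FGF and ERK signalling, fell. Spry1 had 320, 293 and 293 normalized counts at D4 and 56.9, 94.5 and 42.2 at D6 (log2 fold change -2.22 ± 0.49, adjusted p = 0.0401). Dusp6, which encodes an ERK phosphatase, had 703, 1787 and 2204 at D4 and 417, 393 and 639 at D6 (-1.72 ± 0.37, adjusted p = 0.0391). Both were separated by day but rested on the full set of libraries. Spry1 lost its call whichever library was left out (0.191 without D6 replicate 3), and Dusp6 without D4 replicate 2, D4 replicate 3, D6 replicate 1 or D6 replicate 2 (0.200). Spry2, of the same inhibitor family as Spry1, had 916, 1017 and 507 at D4 and 1158, 1828 and 1665 at D6, and it was not called (0.93, adjusted p = 0.352). The 18 tested FGF pathway genes had 2 called lower and a median of -0.43, and without D6 replicate 1 they had 1 called higher and none lower.

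In TGF beta and BMP signalling, Tgfbr2 rose and Id2, a BMP-induced inhibitor of helix-loop-helix factors, fell. Id2 had 1347, 1285 and 1614 normalized counts at D4 and 390, 565 and 524 at D6 (-1.52 ± 0.34, adjusted p = 0.0416), and it lost its call whichever library was left out (0.136 without D6 replicate 2). Among the 22 genes 8 were positive, with a median of -0.79. Without D6 replicate 1, the counts were 3 higher (Tgfbr2 and the secreted inhibitors Fst and Nog) and 3 lower (Id1, Id3 and Smad6). Id1 and Id3 differed strongly between D6 libraries, Id3 with 1346 normalized counts in D6 replicate 1 and 141 and 147 in the others.

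Dnmt3b, a de novo DNA methyltransferase, had 10575, 6811 and 4960 normalized counts at D4 and 2018, 2076 and 2470 at D6 (log2 fold change -1.76 ± 0.39, adjusted p = 0.0416). It kept its call only without D4 replicate 3, with an adjusted p of up to 0.237 without D4 replicate 1. The other 8 DNA methylation genes were not called. Dlk1, an imprinted Notch-family ligand, had 667, 954 and 2089 at D4 and 34.5, 239 and 325 at D6 (-2.63 ± 0.57, adjusted p = 0.0393), and its call was lost without D4 replicate 3 (0.130) or D6 replicate 2. Of the 13 imprinted genes tested, 4 were positive, with a median of -0.56.

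The strongest falls outside these lists were of Calcoco2, an autophagy receptor (log2 fold change -4.78, adjusted p = 0.0396), and Arg1, arginase (-4.67, adjusted p = 0.0111). Arg1 had 356, 564 and 523 normalized counts at D4 and 1.72, 17.5 and 37.7 at D6, and it kept its call without any 1 library. Calcoco2 had 3406 in D4 replicate 1 and 260 and 437 in the other D4 libraries, against 3.45, 47.3 and 91.6 at D6, and its call was lost without D4 replicate 1 (0.342) or D6 replicate 2. Trabd2b, a Wnt-cleaving metalloprotease, had 2099, 1390 and 4773 at D4 and 384, 126 and 289 at D6 (-3.38, adjusted p = 0.00298).

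Car3, a carbonic anhydrase, Hmga1, a chromatin protein of proliferating and undifferentiated cells, and Crmp1, a neuronal cytoskeletal regulator, fell by 2.62, 2.58 and 2.54 on the log2 scale (adjusted p = 0.00615, 0.00298 and 0.00298). These 3 and Trabd2b kept their calls without any 1 library. Rasgrp3, a RAS activator, fell by 3.19 (adjusted p = 0.0314) and Cux2, a homeobox gene, by 2.43 (adjusted p = 0.0189). Rasgrp3 was lost without D4 replicate 2, D4 replicate 3 or D6 replicate 3 (0.113), and Cux2 without D4 replicate 3 (0.0723), D6 replicate 2 or D6 replicate 3.

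Markers of pluripotency and of other cell types were compared by list. Of 19 pluripotency genes none was called and 6 were positive, with a median of -0.68. Nanog had at most 311 and Pou5f1 at most 672 normalized counts in a library. Klf4, a pluripotency gene that differentiated epithelia use as well, had 3291, 3577 and 1948 at D4 and 3298, 11150 and 11329 at D6 (1.55, adjusted p = 0.0555), called without D6 replicate 1 (1.94, adjusted p = 0.000959). The lists for neuronal differentiation, neural crest, node and mesendoderm, gut endoderm, trophoblast, endothelium and cardiac mesoderm had no called gene with or without D6 replicate 1. Their summed levels were at most 8518 normalized counts in a library, and those of the node and gut lists at most 721. Among 15 fibroblast matrix genes, Pdgfra rose and no other was called. Of 24 epithelial genes none was called over all libraries, with a median of -0.03, whereas without D6 replicate 1 the adhesion genes Pkp2 and Cdh3 were called lower and the median was -0.81.

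Cell cycle genes stayed near 0 change. None of 21 S phase and 22 G2 and M phase genes was called, with median log2 fold changes of -0.12 and 0.04. None of 19 p53 target genes was called, with a median of 0.32, and none of 23 sterol and fatty acid synthesis genes, with a median of 0.15, except that the sterol sensor Insig1 was called higher without D6 replicate 1. Glycolysis and hypoxia genes had a median of -0.23 and interferon response genes of 0.05, with none called.

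The same genes were then followed in cells of the same gate that had stayed in N2B27 with RA and were sorted at D4 or D6, none of which enter the progeny comparison. In those cells 2 of 21793 genes were called between D6 and D4 (0.00918%). Tinagl1, a matrix protein of tubules, was higher at D6 (log2 fold change 2.27, adjusted p = 0.00919) and Fras1, an epithelial basement membrane protein, was lower (-2.25, adjusted p = 0.0127). With same-numbered libraries as a block, 6 were called. Tinagl1 was lost without sorted D4 replicate 1 (0.0722) or 3, and Fras1 without sorted D4 replicate 2 (0.191) or sorted D6 replicate 2.

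Of the 96 genes called in progeny, 87 had the same sign in the sorted cells, against 53.6% of the 21407 genes tested in both. The 42 rising genes had a median log2 change of 0.61 there and the 54 falling genes of -1.14. Dlk1 was an exception, with means of 61.4 at D4 and 311 at D6 in sorted cells. Parietal endoderm genes were positive in 18 of 19 cases in the sorted cells too, with a median of 0.77 and no gene called. The gate was the same but the medium was not, so effects of medium and of replating cannot be told apart in it.

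The other 2 progeny populations also shared much of the direction, in libraries whose means the comparison does not use. In Sox1+FOXA2- progeny 80 of the 96 genes had the same sign between D6 and D4 (55.6% of all genes), and in Sox1+FOXA2+ progeny 89 did (57.5% of all genes). Same-numbered D4 libraries of the Sox1-FOXA2+ and the other progeny deviated together, with correlations of 0.293 to 0.614, and same-numbered D6 libraries less so, with 0.138 to 0.445 against Sox1+FOXA2+ and 0.0589 to 0.427 against Sox1+FOXA2- progeny, so these changes are not fully separate measurements. The 42 rising genes had median changes of 0.72 and 0.83 in the 2 populations, and the 54 falling genes of -0.41 and -0.61.

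The genes that fell were already lower in Sox1-FOXA2+ progeny at D4 than in their neighbours. Of the 54, 48 had a higher mean in Sox1+FOXA2- progeny at D4 and 50 in Sox1+FOXA2+ progeny at D4, against 51.1% and 59.4% of all genes. Sox9 means at D4 were 2067 in Sox1-FOXA2+, 5473 in Sox1+FOXA2- and 3845 in Sox1+FOXA2+ progeny. Of the 42 rising genes, 7 and 9 were higher in those populations at D4. Nid1, for example, averaged 7856 in Sox1-FOXA2+, 4199 in Sox1+FOXA2- and 5875 in Sox1+FOXA2+ progeny at D4.

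The difference between populations in their D6-D4 change was tested gene by gene. Against Sox1+FOXA2- progeny, 2 of 24025 genes were called (0.00832%), and against Sox1+FOXA2+ progeny also 2 (0.00832%). Both comparisons use the same 6 libraries of Sox1-FOXA2+ progeny. In a fit of all 57 libraries neither comparison had a called gene, with 866 and 849 at an unadjusted p under 0.05.

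A fit with 1 term for each day and replicate number was added after seeing the data, because same-numbered libraries of a day deviated together. It called 19 genes against Sox1+FOXA2- progeny (0.0791%), 3 more positive and 16 more negative in Sox1-FOXA2+ progeny. Of these 19, 13 were among the 96. Gas1 differed in change by -1.89 ± 0.30 (adjusted p = 0.0144), Myl9 by -2.29 (0.0177), Tbx2, a T-box repressor gene, by -2.46 (0.0177), Crmp1 by -2.97 (0.0288), Dlk1 by -2.58 (0.0464) and Cdh13 by 2.90 (0.0298). Against Sox1+FOXA2+ progeny it called 6 (0.0250%), among them Sox9 at -2.38 (adjusted p = 0.000460) and Hmga1 at -2.61 (0.0315). The genes named here were chosen after their values were seen.

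Cubn, the endocytic receptor cubilin, was called in both comparisons. Cubn, which was called with that block too, had 23481, 38629 and 23642 normalized counts at D4 and 15908, 16097 and 28933 at D6 in Sox1-FOXA2+ progeny, where the days overlapped (log2 fold change -0.51, adjusted p = 0.802).

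In Sox1+FOXA2- progeny the Cubn mean went from 278 to 2942, and in Sox1+FOXA2+ progeny from 1007 to 13162. The difference in change was -3.91 ± 0.55 on the log2 scale against Sox1+FOXA2- (adjusted p = 0.00445) and -4.22 ± 0.55 against Sox1+FOXA2+ (adjusted p = 0.00115). With the block of day and number they were -3.81 (adjusted p = 0.000403) and -4.16 (7.95e-05). Both calls held in all 12 fits without 1 library, though the first was lost in a robust fit (0.0577). At D6 the Sox1-FOXA2+ mean of 20313 was thus still above both others. The D6 libraries of Sox1+FOXA2+ progeny, with 20360, 12708 and 6418, overlapped those of Sox1-FOXA2+ progeny, and the difference in level was not tested.

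Ecm1, a secreted matrix protein, fell in Sox1-FOXA2+ progeny from 1263, 2396 and 5710 normalized counts to 688, 391 and 663 (log2 fold change -2.45 ± 0.47, adjusted p = 0.0143), and that call was lost without D4 replicate 3 or D6 replicate 2 (0.0909). In Sox1+FOXA2- progeny its mean went from 4745 to 15675. The changes differed by -4.16 ± 0.65 (adjusted p = 0.0132), called in all 12 fits without 1 library lost in a robust fit (0.249) and kept with the block (-3.85, adjusted p = 0.0134). Sox9 was lower at D6 in Sox1+FOXA2- progeny too, with 5602, 6784 and 4032 normalized counts at D4 and 3197, 2683 and 1906 at D6. Its change was not called as different from that population. The change of Sox9 differed by -2.36 ± 0.39 from that in Sox1+FOXA2+ progeny (adjusted p = 0.0358), where its mean was 3845 at D4 and 3763 at D6. That call was lost in 9 of 12 fits without 1 library, which were the fits without any 1 of the 6 Sox1+FOXA2+ libraries (up to 0.319 without D4 replicate 3) and those without Sox1-FOXA2+ D4 replicate 2, D6 replicate 1 or D6 replicate 3.

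**Figure D5:**
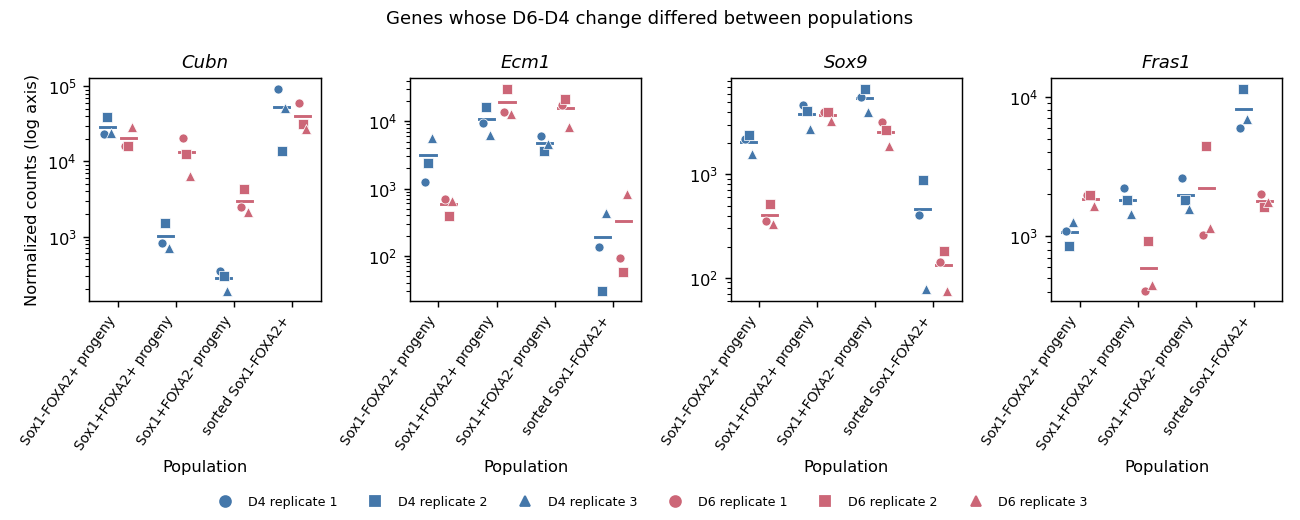
Normalized counts (log axes, 1 scale per panel) of Cubn, Ecm1, Sox9 and Fras1 in each D4 and D6 library of 3 progeny populations and of sorted Sox1-FOXA2+ cells, with 1 symbol per replicate and a bar at the mean of 3. Cubn stays high in Sox1-FOXA2+ progeny (means 28584 and 20313) while it goes from 278 to 2942 in Sox1+FOXA2- progeny. The Ecm1 value of 0 in sorted D4 replicate 2 is drawn near the foot of its axis.

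Against the sorted cells, 1 of 21793 genes was called (0.00459%). Fras1 had means of 1066 at D4 and 1854 at D6 in progeny and of 8123 and 1798 in sorted cells, a difference in change of 3.04 on the log2 scale (adjusted p = 0.0361). It was called in 5 of 12 fits without 1 library. It was lost without sorted D4 replicate 2 (0.201), sorted D6 replicate 2, progeny D6 replicate 1, progeny D6 replicate 2 or any 1 of the progeny D4 libraries. For single genes such as Nid1 and Thbd, no difference in change from the other populations was called, with the block of day and number or without it. The difference for Thbd was 3.13 ± 1.06 against Sox1+FOXA2- progeny (adjusted p = 0.823) and 1.46 ± 1.04 against Sox1+FOXA2+ progeny (adjusted p = 1.00).

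By the count of libraries alone, 1509 genes were higher in every D6 library than in every D4 library (6.28%) and 1179 were lower (4.91%). Parietal endoderm genes were apart in this way in 12 of 19 cases upwards and 1 downwards, and collagen modification genes in 9 of 20 upwards and 1 downwards. The Hox list had 5 of 12 apart, all downwards, and the smooth muscle list 8 of 20 downwards and 1 upwards.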

How the data were processed

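Gene counts were deposited by the authors as raw counts per gene. According to the study's methods, libraries were made with a stranded full-length kit, aligned with STAR to GENCODE M21 (mouse GRCm38), and counted with featureCounts. Tool versions are not given in the sources used here. The table held 55450 genes, and 92 lines naming no gene carried 0 counts and were left out. Where genes overlap, the counting left shared exons low or at 0, so the share of exon length that overlaps is given where it is large. No pair of libraries was identical.

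Counts were tested as deposited with edgeR 4.0.16 in R 4.3.3 (TMM, filterByExpr set to 10 counts per library and 15 in total, glmQLFTest, 2-sided, Benjamini-Hochberg over all genes tested, threshold 0.05). The main comparison and its differences from the other progeny used the 18 progeny libraries with 1 mean per group. Comparisons with sorted cells used the 12 D4 and D6 libraries of the Sox1-FOXA2+ gate. Normalized counts are counts divided by DESeq2 1.42.0 size factors over all 57 libraries. Scripts were tested on simulated data.

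Same-numbered libraries were checked for pairing over the 5000 genes with the highest mean. In sorted cells the correlations of same-numbered deviations were 0.175, 0.296 and 0.195, and the numbers were taken to pair them. Within a day, same-numbered Sox1-FOXA2+ and Sox1+FOXA2+ progeny had correlations over 0.1 throughout and were taken as paired, whereas 1 of the 3 pairs with Sox1+FOXA2- progeny at D6 was at 0.0589, so a block of day and number was fitted as an alternative. Sorted values with the block are given where they move a count by over 1.5 times.

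Named genes were all called or well-known members of 38 lists of 629 genes, and the 12 highest and 12 lowest fold changes among called genes whose days did not overlap and whose mean reached 100 normalized counts. The members and lists were chosen with earlier results of these data known. Alternatives were DESeq2, its size factors, no filter, a robust fit, other sets of libraries, the replicate block and leaving out each library. Promoter sequences are from RefSeq (GRCm38.p6).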

Additional observations from a re-analysis of the deposited data

Results flagged for a closer look

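Between D4 and D6, 5 changes in Sox1-FOXA2+ progeny differed from those in another population by the test of the difference itself (edgeR, with no replicate block). For Cubn the difference in log2 change was -3.91 against Sox1+FOXA2- progeny and -4.22 against Sox1+FOXA2+ progeny, 2 comparisons that share the Sox1-FOXA2+ libraries. For Ecm1 it was -4.16 against Sox1+FOXA2- progeny, and for Sox9 it was -2.36 against Sox1+FOXA2+ progeny. For Fras1 it was 3.04 against sorted Sox1-FOXA2+ cells. The fits that lose these calls are given with the values above. With groups of 3 libraries, no test for a library far from its group was made.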

How the results depend on the processing

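The count of 96 called genes moved with the test, the filter and the libraries in the fit. DESeq2's Wald test called 395 (186 higher and 209 lower), a fit without a filter on low counts 483, a fit of all 57 libraries 0 (728 at an unadjusted p under 0.05), a fit of the 6 libraries alone 0 (1347 unadjusted) and that fit with a replicate block 45. Leaving out 1 library gave 40 to 207. DESeq2 size factors (107), a robust fit (82) and a fit without both libraries numbered 1, chosen after seeing the data (110), stayed within 1.5 times.

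The change of Cubn and Ecm1 against Sox1+FOXA2- progeny made 2 calls. DESeq2 gave 50, no filter 124, a robust fit 0 (1300 unadjusted), all libraries 0 (866 unadjusted) and fits without 1 library 2 to 10. Against Sox1+FOXA2+ progeny, DESeq2 gave 33, no filter 59, all libraries 0 (849 unadjusted) and fits without 1 library 1 to 4, beside 2. In sorted cells DESeq2 gave 277, no filter 87, the replicate block 6, all libraries 3 and fits without 1 library 1 to 28, beside 2. Against sorted cells DESeq2 gave 114, no filter 71, all libraries 0 (1816 unadjusted) and fits without 1 library 0 to 11, beside 1. The causes were not tested.

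The replicate block called 142 genes in the progeny comparison (59 higher and 83 lower), and it left the counts of calls against the other populations as they were. A block of day and replicate number, chosen after seeing the data, called 19 genes against Sox1+FOXA2- and 6 against Sox1+FOXA2+ progeny. Same-numbered D4 and D6 progeny libraries did not deviate together, with correlations of 0.0181, 0.0864 and -0.292. The D6 libraries matched their own number best in 1 of 3 cases and the D4 libraries in 0 of 3, so the libraries share only a number.

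For the named genes, 1185 values under 15 alternatives were computed. Of these, 825 kept direction and side of the threshold, 234 kept direction and lost the call, 125 gained one, and 1 reversed. That was Dab2, at 0.17 with all libraries and between -0.00895 (without D4 replicate 3) and 0.57 (without D4 replicate 2) when 1 was left out. Depth limits low genes most in D4 replicate 1, at 10170632 counts.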

Other observations

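The following called genes were chosen after their values were seen. Tbx2, a T-box repressor, fell from 1245, 1439 and 2320 normalized counts at D4 to 609, 285 and 181 at D6 (log2 fold change -2.24 ± 0.33, adjusted p = 0.00298), and Sox11, a transcription factor of immature neurons, from 2095, 2386 and 1480 to 340, 722 and 680 (-1.78 ± 0.31, adjusted p = 0.00769). Uchl1, a neuronal ubiquitin hydrolase, and Fabp5, a fatty acid binding protein, fell by 2.13 and 1.98 on the log2 scale (adjusted p = 0.00298 and 0.00428). Gjc1, the gap junction protein connexin 45, fell by 2.22 (adjusted p = 0.00298). These 5 kept their calls without any 1 library. Tbx2 means in Sox1+FOXA2- and Sox1+FOXA2+ progeny at D6 were 3592 and 4600, against 358 in Sox1-FOXA2+ progeny and 4.75 in sorted cells.

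Lpin1, a phosphatidate phosphatase of lipid synthesis, rose from 3015, 3342 and 3442 normalized counts to 9118, 10624 and 8750 (1.53 ± 0.24, adjusted p = 0.00353), with little spread among libraries and a call in every fit without 1 library. Vcan, the proteoglycan versican (1.49, adjusted p = 0.0143), Timp2, a metalloprotease inhibitor (1.29, adjusted p = 0.0394), and the heparan sulfate proteoglycan Sdc4 (1.44, adjusted p = 0.0295) rose. Vcan was lost without D4 replicate 1, D4 replicate 2 or D6 replicate 2, Sdc4 without D4 replicate 2, D4 replicate 3, D6 replicate 2 or D6 replicate 3, and Timp2 was called only without D6 replicate 1. Other matrix genes fell, namely Ecm1, described above, the microfibril gene Fbn2 (-2.14, adjusted p = 0.0496) and the glypican gene Gpc3 (-1.43, adjusted p = 0.0496). Fbn2 was lost without D4 replicate 1, D4 replicate 3, D6 replicate 1 or D6 replicate 2, and Gpc3 without D4 replicate 2, D4 replicate 3, D6 replicate 2 or D6 replicate 3. The long noncoding RNA Neat1 rose from 4509, 3388 and 3436 to 19226, 9696 and 8517 (1.72 ± 0.32, adjusted p = 0.0143), highest in D6 replicate 1, and lost its call without D4 replicate 3. Ptprt, a receptor phosphatase, had 15722 normalized counts in D6 replicate 1 and 2452 and 1554 in the other D6 libraries, against 435 to 1635 at D4, and without D6 replicate 1 it was not called (1.09, adjusted p = 0.532).

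Other lists gave no called gene over all libraries. The 7 visceral endoderm patterning genes tested had a median log2 fold change of -0.34, the 12 epithelial-mesenchymal transition genes of 0.05, the 15 immediate early genes of 0.24 and the 20 Wnt pathway genes of -0.42. The 10 Zscan4 and early-embryo genes tested were all negative, with a median of -3.28, and most are near-identical copies whose reads may be split. Without D6 replicate 1, Snai1, a repressor of E-cadherin, was called higher (2.90, adjusted p = 0.00344) and Zscan4a lower.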
